A study of Mus musculus with 20 samples.

Results

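Carboxylesterases are the serine hydrolases with which the liver splits ester, amide and thioester bonds, and the 10 examined here were chosen by exact gene name: the mouse genes Ces1c, Ces1d, Ces1e, Ces1f, Ces1g, Ces2a, Ces2e, Ces3a and Ces3b in the table of wild-type livers, and human CES1 in the table of humanized livers. These were 9 of 55335 mouse genes and 1 of 60607 human genes listed. The mouse genes were picked with the wild-type comparison in view, in which Ces3a is among the most lowered genes, so their differences in those livers are given as a description with no test. CES1 was taken by name and was tested, since the choice by values rested on the wild-type livers. Earlier results of these data were known when members and lists were chosen.

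HuR (gene Elavl1 in mouse, ELAVL1 in human), an RNA-binding protein that attaches to U-rich and AU-rich stretches of transcripts, was knocked down in the liver with adenovirus carrying a short hairpin RNA. The WT set had 6 livers with the mouse HuR hairpin (HuR KD) and 6 with the LacZ control virus, from male C57BL/6 mice bought when 8 weeks old and given 10 to 14 days to settle. The humanized set had 4 livers with the human HuR hairpin and 4 with LacZ, from TK-NOG mice, which are highly immune-deficient and carry a thymidine kinase transgene under the mouse albumin promoter. All 8 of those mice had received ganciclovir (25 mg/kg) at 8 to 9 weeks, which kills the host hepatocytes that express the transgene, and then cryopreserved primary human hepatocytes from few donors. They were used 8 to 12 weeks after transplantation with serum human albumin above 0.5 mg/ml. Every mouse in both sets received 2000000000 plaque-forming units of virus by vein, and on day 7 the mice went without food for 4 h before their livers were collected; total RNA was sequenced with strand kept. The humanized table holds human genes alone, and the host's mouse genes in those livers were not analysed here.

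In hepatocytes most carboxylesterases sit in the lumen of the endoplasmic reticulum, where they hydrolyse triacylglycerol and cholesteryl esters destined for very-low-density lipoprotein as well as ester drugs and prodrugs. They act through a serine in a short GXSXG motif, and a tail named HXEL at the end of the protein returns them to the endoplasmic reticulum. Mice carry many copies of the Ces1 and Ces2 genes where humans carry few. In human liver CES1 is known as the main drug-hydrolysing carboxylesterase, with CES2 and CES3 as its relatives.

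The 9 mouse genes lie in 2 blocks on chromosome 8 (build GRCm38, GENCODE M21). The Ces1 block spans 0.36 Mb from Ces1a to Ces1h, with 8 protein-coding carboxylesterase genes. Its members are Ces1c (93099015 to 93131283), Ces1d (93166068 to 93197838), Ces1e (93201218 to 93229619), Ces1f (93256236 to 93279747) and Ces1g (93302369 to 93337308), all on the minus strand. The second block also spans 0.36 Mb, from Ces2a to Ces3b, with 9 protein-coding carboxylesterase genes. Its members are Ces2a (104734003 to 104741634), Ces2e (104926260 to 104934672), Ces3a (105048601 to 105058413) and Ces3b (105083753 to 105093929), all on the plus strand. No protein-coding gene other than a carboxylesterase is annotated within either block. The RefSeq promoter table (GRCm38.p6) matched 6 of the 9, and Ces1d, Ces1f and Ces3a were not matched.

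The coding bases around the catalytic serine show how the members differ within the family. In each line 63 bases of the spliced transcript are given 5′ to 3′, with the serine codon of the GXSXG motif in capitals. The coordinates are the outer ends of the window, which lies in exon 5 and, where the span is longer than the window, also in the next exon.
Ces1c (chr8:93120370-93123159, minus strand): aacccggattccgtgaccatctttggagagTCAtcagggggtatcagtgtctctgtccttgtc
Ces1d (chr8:93186116-93187802, minus strand): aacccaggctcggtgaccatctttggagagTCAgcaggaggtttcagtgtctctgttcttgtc
Ces1e (chr8:93215148-93217558, minus strand): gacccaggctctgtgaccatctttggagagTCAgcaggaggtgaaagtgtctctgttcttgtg
Ces1f (chr8:93268089-93270033, minus strand): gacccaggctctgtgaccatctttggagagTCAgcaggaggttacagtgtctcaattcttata
Ces1g (chr8:93326865-93328437, minus strand): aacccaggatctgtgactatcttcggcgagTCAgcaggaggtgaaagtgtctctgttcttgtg
Ces2a (chr8:104737386-104737448, plus strand): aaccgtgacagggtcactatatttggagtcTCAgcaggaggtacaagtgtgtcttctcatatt
Ces2e (chr8:104929791-104929853, plus strand): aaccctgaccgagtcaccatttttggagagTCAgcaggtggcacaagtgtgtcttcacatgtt
Ces3a (chr8:105051562-105051734, plus strand): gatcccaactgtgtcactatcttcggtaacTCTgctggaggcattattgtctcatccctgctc
Ces3b (chr8:105086652-105086824, plus strand): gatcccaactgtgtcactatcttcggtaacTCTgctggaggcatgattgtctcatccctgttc
All 9 genes held the motif once among codons 200 to 240, with TCA as the serine codon in the Ces1 and Ces2 genes and TCT in Ces3a and Ces3b. Ces3a and Ces3b differed at 2 of these 63 bases, while Ces3a differed from the Ces1 and Ces2 genes at 24 or 25.

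The last coding bases show where the members part at their tails. Each line gives the final 33 bases of the coding sequence, all within the last exon, with the 4 codons before the stop codon in capitals, since these carry the HXEL retrieval signal where a gene has one.
Ces1c (chr8:93099165-93099197, minus strand): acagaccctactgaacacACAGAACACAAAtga
Ces1d (chr8:93166255-93166287, minus strand): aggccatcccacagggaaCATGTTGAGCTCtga
Ces1e (chr8:93201404-93201436, minus strand): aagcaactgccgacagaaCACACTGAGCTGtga
Ces1f (chr8:93256429-93256461, minus strand): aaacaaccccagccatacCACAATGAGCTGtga
Ces1g (chr8:93302905-93302937, minus strand): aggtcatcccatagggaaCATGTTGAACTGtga
Ces2a (chr8:104741384-104741416, plus strand): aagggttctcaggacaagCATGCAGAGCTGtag
Ces2e (chr8:104933682-104933714, plus strand): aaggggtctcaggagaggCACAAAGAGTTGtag
Ces3a (chr8:105058071-105058103, plus strand): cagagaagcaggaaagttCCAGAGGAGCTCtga
Ces3b (chr8:105093230-105093262, plus strand): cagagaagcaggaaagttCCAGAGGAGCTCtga
The codons of the HXEL signal were present in 6 of the 9 genes and absent from Ces1c, Ces3a and Ces3b. Ces1c encodes an esterase that is secreted into mouse plasma. Ces3a and Ces3b had the same 33 bases, with a difference count of 0.

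**Figure D1:**
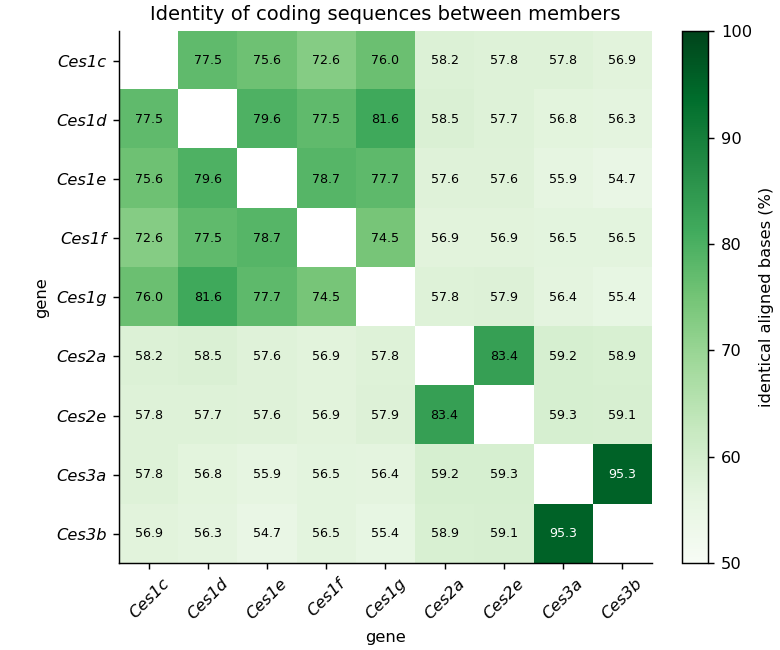
Percent identity of the aligned coding sequences for each pair of mouse genes, genes on both axes, darker green for higher identity. Ces3a and Ces3b stand apart from all other pairs at 95.3%, the Ces1 genes share 72.6% to 81.6%, and pairs from different subfamilies share 54.7% to 59.3%.

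Over the whole coding sequence Ces3a and Ces3b were 95.3% identical, Ces2a and Ces2e 83.4%, and the 10 pairs of Ces1 genes between 72.6% and 81.6% (median 77.5%). The 24 pairs from different subfamilies shared between 54.7% and 59.3%. This bears on the counts, because a read from a stretch that 2 genes share letter for letter cannot be assigned to either from that stretch alone. Of the 1997 windows of 50 bases in the Ces3a transcript, 30.9% also occurred in Ces3b and in no other gene's transcripts, and 26.1% of the Ces3b windows occurred in Ces3a. Ces2a shared 22.2% of its windows, most of them (20.9% of all) with the gene model Gm7208, and Ces1c shared 17.0%, led by Ces1b (10.7%). For Ces1d, Ces1e, Ces1f, Ces1g and Ces2e the shared part was between 1.3% and 3.4%. The split of reads between Ces3a and Ces3b is therefore uncertain in part, and the read length was not given in the sources used here. The authors sequenced paired ends, and the windows do not take the mate of a read into account.

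The 3′ UTRs of the members ran from 150 bases in Ces1c to 958 in Ces2e, beside a median of 850 over 20661 mouse protein-coding genes. The motif ATTTA, a common letter pattern of AU-rich elements, was searched on the sense strand and occurred in 4 of the 9 3′ UTRs, those of Ces1d, Ces1f, Ces2a and Ces2e. Neither Ces3a (310 bases) nor Ces3b (667 bases) held it. Among all genes 62.7% of 3′ UTRs held it, and 30.9% of those between 80 and 500 bases long. The motif TTTTT occurred in 6 of the 9, with 1 in Ces3a and 1 in Ces3b, against 70.4% of all genes and 41.5% of those between 80 and 500 bases. The 3′ UTRs of Ces1g (536 bases), Ces3b and Ces2e are longer than 500 bases, so the shares of that class do not cover them. A match in letters is a description and shows no binding.

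HuR itself was lower in both sets. Elavl1 averaged 9.50 ± 0.789 TPM (a transcript level scaled by gene length and to a total of 1000000 per library, mean ± SD, n = 6) in WT LacZ livers and 4.91 ± 0.694 (n = 6) with HuR KD, a log2 difference of -0.83 (SE 0.089, limma adjusted p = 0.00105). ELAVL1 averaged 5.67 ± 0.623 TPM in humanized LacZ livers and 3.46 ± 0.763 with HuR KD (n = 4 each). Its groups did not overlap, the log2 difference was -0.59 (SE 0.17), the two-sided exact permutation test gave p = 0.0286, the smallest that 4 livers against 4 allow, and the limma adjusted p over all human genes was 0.214. The read totals, recovered from the steps of the TPM values, ran from 12960896 to 44669579 in 11 WT livers, with 1424162 in WT LacZ replicate 2, and from 2672242 to 20310836 in the humanized livers. The 9 markers of hepatocytes summed to between 79040 and 99355 TPM over the WT livers and to between 43747 and 92984 TPM over the humanized ones, and all 9 were found in both tables. Human macrophage markers were nearly absent from the humanized table, with 4 of 9 listed at 0 in every liver and sums of at most 1.24 TPM. Bulk RNA cannot tell fewer cells of a type from less RNA per cell. P-values set a difference between groups against the spread between these livers.

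The mouse carboxylesterases are abundant liver transcripts. Their 9 levels summed to 4770 ± 887 TPM in LacZ livers and 3825 ± 233 with HuR KD (n = 6 each), and made up 98.5% and 98.3% of the TPM of all mouse carboxylesterase genes listed. In control livers the order by mean TPM ran Ces1c, Ces1d, Ces3a, Ces1f, Ces2a, Ces1e, Ces3b, Ces2e and Ces1g. Ces1c stood above Ces1d in all 6 livers with ranges apart, and Ces3a stood above Ces1f likewise. Each of the other 6 neighbouring pairs in that order had ranges that overlapped over the control livers, Ces1d and Ces3a among them. With HuR KD Ces3a stayed the third by mean, but its range then lay below that of Ces1d in all 6 livers and overlapped that of Ces1f.

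**Figure D2:**
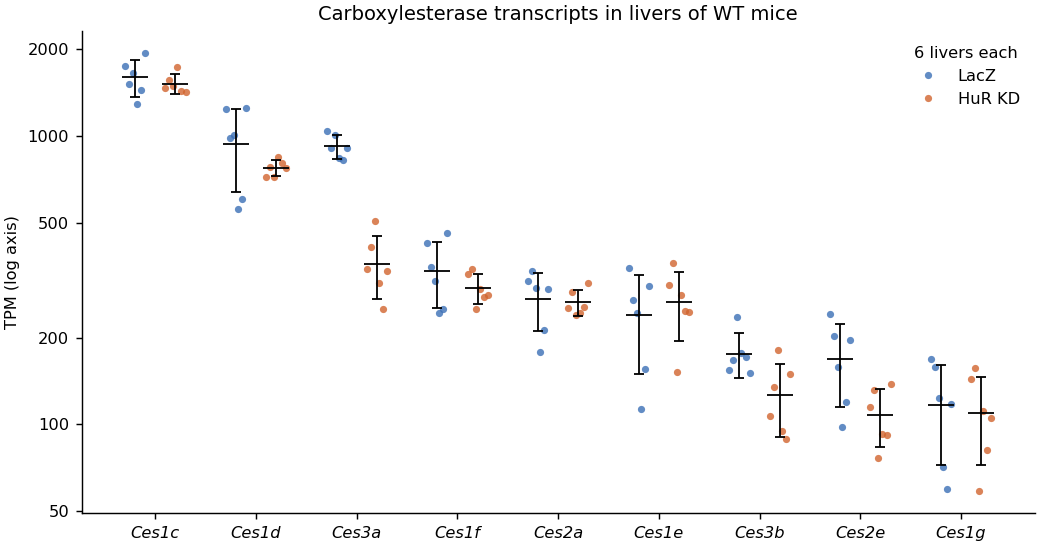
TPM of the 9 mouse carboxylesterases on a log axis, ordered by mean level in control livers. Points are single livers (6 LacZ in blue, 6 HuR KD in orange), with black bars for the mean and SD. Ces3a is the gene whose groups do not overlap, with 823 to 1039 TPM in LacZ livers and 251 to 508 TPM with HuR KD.

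Ces3a, known as esterase 31 and a hydrolase of the endoplasmic reticulum, had 823 TPM in the lowest LacZ liver, 909 at the median and 1039 in the highest. With HuR KD its lowest, median and highest livers had 251, 343 and 508 TPM. The groups did not overlap, and each HuR KD liver lay below each LacZ liver. The means were 921 ± 86.7 and 361 ± 89.2 TPM (SD, n = 6 each), so the HuR KD mean was 39.2% of control, a difference of -1.38 on the log2(TPM + 1) scale (SE 0.14). Its median rank among protein-coding genes went from 104.5 in LacZ livers to 285.5 with HuR KD. Between 1407 and 40900 reads per liver stood behind these levels, with 1407 in the shallow LacZ replicate 2, and without that liver the log2 difference was -1.38.

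Ces3b, the near copy of Ces3a, ran lower in level and showed a smaller difference. Its LacZ livers had 151, 169 and 236 TPM (lowest, median and highest) and its HuR KD livers 88.8, 121 and 181 TPM. Here 5 of the 6 HuR KD livers lay below every LacZ liver, and replicate 3 (181 TPM) did not. The means were 176 ± 31.1 and 126 ± 35.8 TPM, 71.5% of control, with a log2 difference of -0.51 (SE 0.17). The ratio of Ces3a to Ces3b was 5.33 ± 0.917 in LacZ livers (range 4.25 to 6.73) and 2.91 ± 0.371 with HuR KD (range 2.26 to 3.26), so the ranges of the ratio did not overlap. The Ces3 pair summed to 1097 ± 99.1 TPM in control livers and 487 ± 122 TPM with HuR KD. As long as shared reads were counted, their split within the pair bears less on this sum than on each gene. It is not wholly without effect, since TPM are scaled by the length of each gene.

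Of the Ces2 genes, which hydrolyse drug esters and neutral lipids, Ces2e and Ces2a differed in their values. Ces2e had 98.0, 177 and 241 TPM in the lowest, median and highest LacZ liver and 76.6, 104 and 138 TPM with HuR KD. The groups overlapped, with 3 of 6 HuR KD livers below every LacZ liver. Its means were 169 ± 53.9 and 108 ± 24.4 TPM, 63.7% of control, a log2 difference of -0.61 (SE 0.22). Ces2a had 179, 295 and 341 TPM in LacZ livers and 239, 255 and 309 TPM with HuR KD. All HuR KD livers lay inside the LacZ range, the means were 273 ± 62.9 and 265 ± 27.9 TPM, and the log2 difference was -0.01 (SE 0.15).

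The 5 Ces1 genes overlapped between the groups. Ces1c, the plasma esterase and the most abundant member, had 1285, 1580 and 1935 TPM in the lowest, median and highest LacZ liver and 1423, 1479 and 1735 TPM with HuR KD. Its log2 difference was -0.06 (SE 0.10), with means of 1595 ± 231 and 1518 ± 118 TPM. Ces1d, also called triacylglycerol hydrolase and known to mobilise stored fat for lipoprotein assembly, had 556, 995 and 1252 TPM in LacZ livers and 720, 776 and 847 TPM with HuR KD. All 6 HuR KD livers lay below the LacZ mean of 940 ± 300 TPM, and 2 LacZ livers lay below all of them. The HuR KD mean of 774 ± 49.1 TPM was 82.4% of control, a log2 difference of -0.21 (SE 0.19).

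Ces1f, named triacylglycerol hydrolase 2 among its synonyms, had 244, 333 and 460 TPM in LacZ livers and 252, 288 and 347 TPM with HuR KD, a log2 difference of -0.17 (SE 0.16). Ces1e, or egasyn, which holds beta-glucuronidase in the endoplasmic reticulum, was the member with a higher mean, at 239 ± 89.4 TPM in LacZ livers and 266 ± 70.5 TPM with HuR KD. Its values were 113, 257 and 349 TPM against 152, 265 and 363 TPM, and the log2 difference of 0.21 (SE 0.27) was smaller than its SE. Ces1g, the mouse gene once called Ces1, had 60, 121 and 168 TPM in LacZ livers and 58.8, 108 and 157 TPM with HuR KD, a log2 difference of -0.06 (SE 0.29).

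All 9 mouse members passed the filter of a mean of 1 TPM. Of these, 8 of the 9 had a lower mean with HuR KD, where 43.2% of the 15090 mouse genes tested had a log2 difference below 0, and 1 of the 9 had groups that did not overlap in the lower direction, where 1.23% of those genes did. The comparison chose these members, so nothing is read from the counts. The members' median log2 difference was -0.17 beside 0.03 over all genes tested. By limma 0.888% of the mouse genes passed an adjusted p of 0.05 and 16% an unadjusted p of 0.05. Summed by subfamily, the HuR KD mean was 91.8% of control for the 5 Ces1 genes, 84.3% for Ces2a with Ces2e and 44.4% for Ces3a with Ces3b. Leaving out 1 liver at a time kept Ces3a between -1.49 and -1.28, while the sign of the log2 difference turned for Ces1g (up to 0.10) and for Ces2a (up to 0.06).

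**Figure D3:**
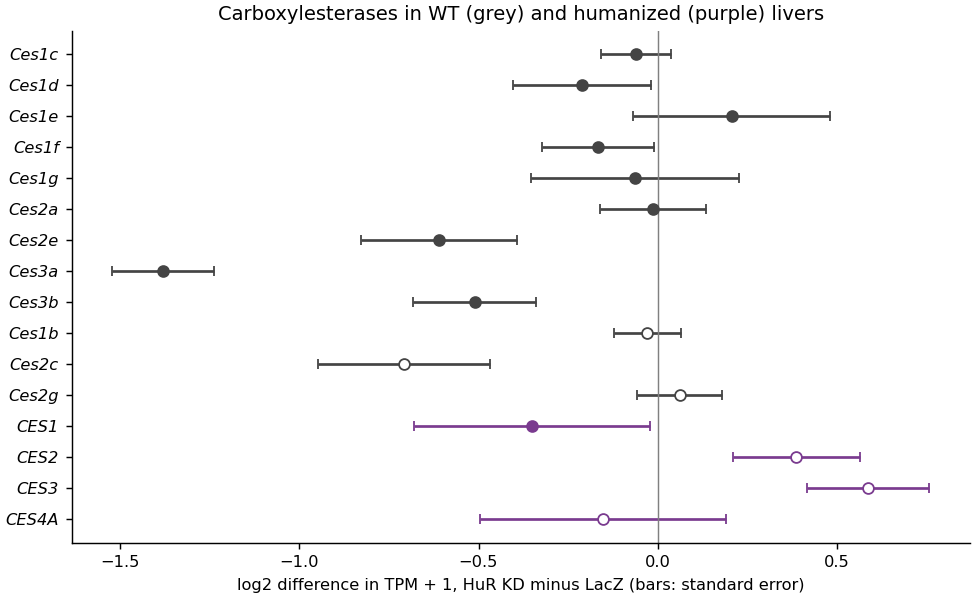
Log2 difference in TPM + 1 (HuR KD minus LacZ, x axis) for each carboxylesterase that passed a mean of 1 TPM, the pseudogene CES1P1 left out. Filled points are the chosen members, open points the other family genes, grey for WT livers and purple for humanized livers, with bars for the standard error. Ces3a lies farthest from 0 at -1.38, and CES3 lies on the other side at 0.59.

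The spread between livers of 1 group showed a second pattern. Within LacZ, replicates 4 and 5 were the lowest 2 livers for Ces1d (556 and 605 TPM), Ces1e (113 and 156 TPM), Ces1f (244 and 252 TPM), Ces1g (71.2 and 60 TPM), Ces2a (179 and 213 TPM) and Ces2e (98.0 and 120 TPM). They were also the lowest 2 for Ces3a (840 and 823 TPM, the others 908 to 1039) and for Ces1c (1285 and 1443 TPM, the others 1511 to 1935). Ces3b was the exception, with 177 and 171 TPM in these livers beside a median of 169. As a description over 12 livers, each value was taken as its deviation from its group mean on the log2(TPM + 1) scale. The 15 pairs among the 6 genes Ces1d to Ces2e had Pearson r between 0.67 and 0.91 (median 0.83). Their 12 pairings with Ces3a or Ces3b had r between -0.35 and 0.22 (median 0.04). Ces1c, left out of the 6, had r between 0.49 and 0.85 with them. The grouping of the 6 comes from these same livers, so the r among them is no test of it. Ces3a and Ces3b had r = 0.74 with each other, and this pair shares sequence windows as given above. These points share libraries and the scaling to a common total.

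The pooled values differed from those within each group. Within the 6 LacZ livers Ces3a had r between 0.65 and 0.83 with the 6 genes and 0.20 with Ces3b. Within the 6 HuR KD livers Ces3a had r between -0.64 and -0.06 with the 6 genes and 0.87 with Ces3b. Ces3b had r between -0.44 and -0.06 with the 6 genes in LacZ livers and between -0.60 and 0.27 with HuR KD. No test was made between these correlations. Within the 6 LacZ livers alone the 15 pairs had r between 0.80 and 0.98, and within the 6 HuR KD livers between -0.003 and 0.97 (median 0.44). All 6 of those genes had a smaller spread relative to their mean with HuR KD. The coefficient of variation of Ces1d was 32% in LacZ livers and 6.34% with HuR KD, and that of Ces2a was 23.1% and 10.5%. Ces3a went the other way, with 9.41% and 24.7%, and so did Ces3b, with 17.6% and 28.4%. No test of spread was made. Leaving out the shallow LacZ replicate 2, the 15 pairs had r between 0.67 and 0.92.

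**Figure D4:**
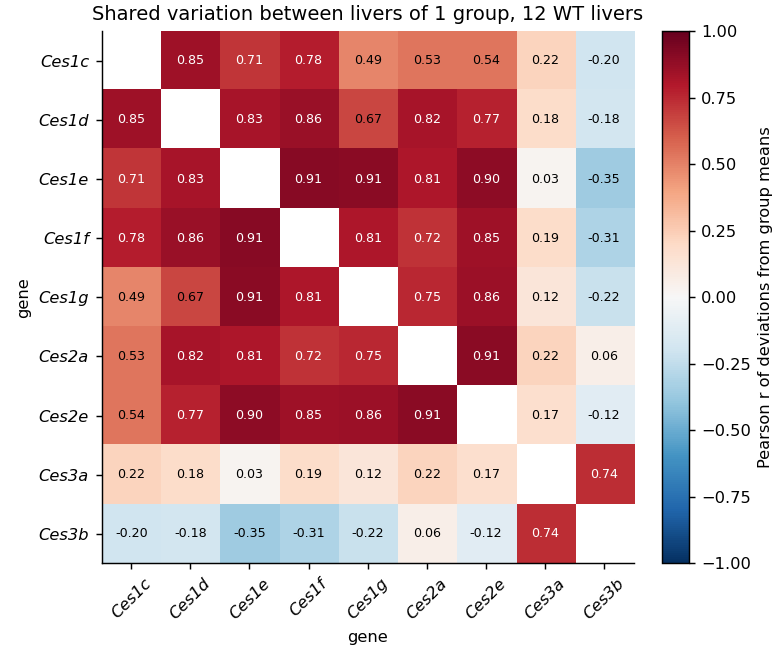
Pearson r of the deviations from the group mean, log2(TPM + 1), for each pair of mouse members over 12 WT livers, genes on both axes, red for positive and blue for negative r. Ces1d to Ces2e form a red block with r from 0.67 to 0.91, and Ces1c has r from 0.49 to 0.85 with that block. Ces3a and Ces3b have r = 0.74 with each other and -0.35 to 0.22 with that block. Within the LacZ livers alone, not plotted, Ces3a had r of 0.65 to 0.83 with the block and 0.20 with Ces3b.

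By the same measure the genes other than the members most like Ces3a over the 12 livers, among 9554 genes with a mean of at least 5 TPM, were Acsm1 (r = 0.80), Lilra5 (0.79), Gm3734 (0.77), Gmpr2 (0.76) and Tmed3 (0.76). Acsm1 encodes a mitochondrial medium-chain acyl-CoA ligase and Tmed3 a cargo receptor between endoplasmic reticulum and Golgi. Without LacZ replicate 2 the leading 5 were Cipc, Pecam1, Acsm1, Creb3l2 and Slc25a33 (r from 0.81 to 0.83), so 1 of the 5 stayed in the list.

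Of the 11 other mouse carboxylesterase genes listed, 3 passed a mean of 1 TPM and none of the 3 passed the limma adjusted p. Ces1b, next to Ces1c in the first block, had 42.5 ± 5.43 TPM in LacZ livers and 41.6 ± 4.74 TPM with HuR KD (log2 difference -0.03, SE 0.09, limma adjusted p = 0.913). Ces2c had 8.85 ± 3.11 and 5.02 ± 1.88 TPM (log2 difference -0.71, SE 0.24, limma adjusted p = 0.172), with 4 of 6 HuR KD livers below every LacZ liver. Ces2g had 18.3 ± 2.74 and 19.2 ± 3.09 TPM (limma adjusted p = 0.852). Ces4a, under the filter, had between 0.722 and 1.89 TPM in LacZ livers and between 0.317 and 0.834 TPM with HuR KD, from 2 to 71 reads a liver. Its HuR KD mean was 39.3% of control, with 5 of 6 HuR KD livers below every LacZ liver. Ces2f and Ces5a were listed at 0 in every liver.

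In the humanized livers the question was whether human CES1 differed with knockdown of human HuR. CES1 had 45.7, 21.6, 68.6 and 54.1 TPM in LacZ replicates 1 to 4 and 26.6, 36.8, 45.8 and 30.2 TPM in HuR KD replicates 1 to 4. The LacZ livers held both the lowest and the highest value, and the HuR KD values all lay inside that range. The means were 47.5 ± 19.7 and 34.9 ± 8.42 TPM (SD, n = 4 each), a log2 difference of -0.35 (SE 0.33). This was not larger than the spread between livers, with limma adjusted p = 0.742 and p = 0.4 in the two-sided exact permutation test over 70 groupings. Between 122 and 984 reads per liver stood behind CES1. LacZ replicate 2, the lowest for CES1, had 51.7% of its TPM in mitochondrially encoded genes against 31.4% to 36.3% in the other LacZ livers, and HuR KD replicate 4 (30.2 TPM) had 51.8% against 29.0% to 38.5%. Rescaling without those genes gave a log2 difference of -0.33. With a liver of high share in each group, rescaling could move the difference between groups only little. The part of that share in the CES1 values was not tested. Without LacZ replicate 2 the log2 difference was -0.68 (limma adjusted p = 0.184), and without LacZ replicate 3 it was -0.14 (limma adjusted p = 0.939). The mitochondrially encoded genes held 0% of the TPM in every WT liver, so TPM levels are not on the same footing in the 2 tables and were not compared between them.

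**Figure D5:**
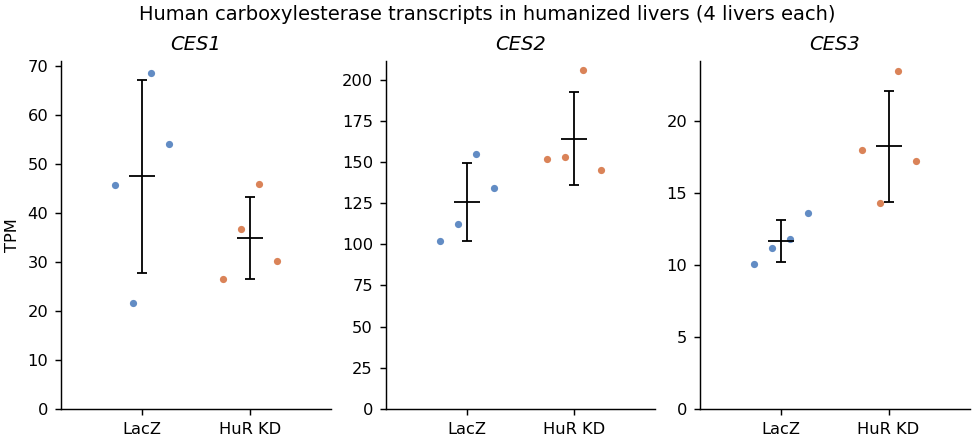
TPM of CES1, CES2 and CES3 in the humanized livers, 4 LacZ (blue) and 4 HuR KD (orange), points for single livers and black bars for the mean and SD, each y axis starting at 0. CES1 overlaps between the groups (21.6 to 68.6 against 26.6 to 45.8 TPM), CES2 overlaps, and the 4 CES3 values with HuR KD (14.3 to 23.5 TPM) lie above the 4 with LacZ (10.1 to 13.6 TPM).

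CES1 was not the most abundant human carboxylesterase in this table. CES2, known for activating irinotecan, exceeded CES1 in each of the 8 livers, by 2.23 to 5.19 times in LacZ livers and 4.17 to 5.71 times in HuR KD livers, on a scale set per transcript length. CES1 has a near copy in the pseudogene CES1P1, which was listed at 1.39 ± 0.351 TPM in LacZ livers and 1.74 ± 1.23 TPM with HuR KD. How many CES1 reads were lost or moved through such copies, or through mouse Ces1 transcripts of the host, was not tested, and no human transcript sequences were used here. Median ranks among human protein-coding genes in LacZ livers were 722.5 for CES1 and 263.5 for CES2.

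CES2 had 102, 112, 155 and 134 TPM in LacZ replicates 1 to 4 and 152, 153, 206 and 145 TPM with HuR KD. The groups overlapped, the means were 126 ± 23.6 and 164 ± 28.0 TPM, and the log2 difference was 0.39 (SE 0.18, limma adjusted p = 0.444, exact permutation p = 0.114). CES3, the human counterpart of Ces3a and Ces3b, had 10.1, 11.2, 11.8 and 13.6 TPM in LacZ livers and 18, 14.3, 23.5 and 17.2 TPM with HuR KD. Its groups did not overlap, with each HuR KD liver above each LacZ liver. The means were 11.7 ± 1.44 and 18.2 ± 3.85 TPM, 156.0% of control (log2 difference 0.59, SE 0.17). The exact permutation p was 0.0286 (0.143 adjusted over the 5 human carboxylesterases that passed the filter) and the limma adjusted p over all human genes was 0.223, so CES3 did not pass. In these livers 2.13% of the 12738 human genes tested had groups that did not overlap in the higher direction and 5.03% in the lower. By limma 0.212% passed an adjusted p of 0.05 and 11.5% an unadjusted p of 0.05. Of the latter 31.3% were higher with HuR KD, or 49.5% when libraries were scaled by median-of-ratios factors, a scaling under which CES1 had a log2 difference of -0.27. CES4A had 3.58 ± 2.03 and 2.97 ± 1.24 TPM (limma adjusted p = 0.913), and neither it nor CES1P1 (0.944) passed.

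The human genes most like CES1 over the 8 humanized livers, among 6447 genes, were CSRP2 (r = 0.99), CKS2 (0.99), LYPLAL1 (0.98), DNAJB4 (0.98) and CD59 (0.97). LYPLAL1 is itself a serine hydrolase. These are descriptions over few livers, the points of all genes share libraries, and the donor behind each liver was not given in the labels.

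Genes that work beside carboxylesterases were read from lists chosen for their roles, with earlier results of these data already known. Of the regulators named for carboxylesterase genes, all 15 were tested in WT livers and 1 passed. Nr1i3, which encodes the constitutive androstane receptor, a nuclear receptor that induces drug-metabolizing genes, fell from 238 ± 45 TPM in LacZ livers to 152 ± 17.8 TPM with HuR KD (log2 difference -0.63, SE 0.13, limma adjusted p = 0.0454), with groups that overlapped. In the humanized livers none of the 15 passed, and 3 had an unadjusted p under 0.05. CEBPA had 170 ± 57.8 and 190 ± 42.7 TPM there and HNF4A 45.5 ± 5.03 and 43.4 ± 7.04 TPM (limma adjusted p = 0.836 and 0.901).

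Of the genes of very-low-density lipoprotein assembly and triglyceride synthesis, 1 of 9 passed in WT livers and 1 of 7 in humanized livers. Tm6sf2, an endoplasmic reticulum protein needed to load lipoproteins with lipid, rose from 34.9 ± 2.25 to 46.3 ± 5.64 TPM in WT livers (log2 difference 0.39, SE 0.08, limma adjusted p = 0.0454). MTTP, the transfer protein that lipidates apolipoprotein B, fell from 224 ± 32.6 to 109 ± 15.3 TPM in humanized livers (log2 difference -1.02, SE 0.16, limma adjusted p = 0.0467), with each HuR KD liver below each LacZ liver. These 3 calls were lost under 12 of 20 alternative settings for Nr1i3, 13 of 20 for Tm6sf2 and 11 of 16 for MTTP, leaving out single livers included.

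The other lists gave no call in either set in the main fit. Among neutral lipid hydrolases and their cofactors, 11 of 12 were tested in WT livers with 2 lower at an unadjusted p under 0.05, and G0s2, the inhibitor of adipose triglyceride lipase, had 359 ± 144 and 265 ± 95.3 TPM (limma adjusted p = 0.604). Mgll, monoacylglycerol lipase, had 141 ± 15.8 and 140 ± 12.9 TPM. In the humanized livers G0S2 had 154 ± 67.9 and 160 ± 65.3 TPM and ABHD6 25.1 ± 4.73 and 36.7 ± 11.8 TPM (limma adjusted p = 0.968 and 0.479).

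Among lipid droplet proteins, Plin2 had 524 ± 49.2 and 610 ± 112 TPM and Hsd17b13 465 ± 66.6 and 604 ± 71.9 TPM in WT livers (limma adjusted p = 0.421 and 0.114). Their human counterparts PLIN2 (203 ± 93.4 and 250 ± 88.5 TPM) and HSD17B13 (304 ± 166 and 296 ± 121 TPM) did not pass. Of the other hydrolases of esters and drugs, Pon1 had 688 ± 94.4 and 603 ± 41.1 TPM and Aadac 529 ± 87.4 and 465 ± 44.7 TPM in WT livers (limma adjusted p = 0.376 and 0.473), and PON1 had 274 ± 24.7 and 221 ± 11.4 TPM and AADAC 432 ± 43.0 and 424 ± 29.1 TPM in humanized livers (limma adjusted p = 0.373 and 0.974).

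Genes of folding and retention in the endoplasmic reticulum lumen, where the members' proteins mature, had a median log2 difference of -0.25 in WT livers beside 0.03 over all genes, with 8 of 11 lower and 6 lower at an unadjusted p under 0.05. P4hb, a protein disulfide isomerase, had 1153 ± 54.9 and 985 ± 103 TPM and Calr, calreticulin, 767 ± 98.9 and 591 ± 90.8 TPM (limma adjusted p = 0.154 and 0.132). In humanized livers CALR had 380 ± 36.4 and 419 ± 81.4 TPM and P4HB 319 ± 14.9 and 278 ± 41.7 TPM. The list's median log2 difference there was -0.22 beside -0.05 over all human genes tested, with 4 of 12 lower and none higher at an unadjusted p under 0.05.

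No gene of the interferon and cell type lists passed the adjusted p in WT livers in the main fit. With median-of-ratios factors, and likewise with quantile normalization, 5 interferon genes and 1 macrophage marker passed, all lower. At a mean of at least 5 TPM, 2 interferon genes, 1 pericentral marker and 1 macrophage marker passed, all lower. Several of these lists still had sums or directions that differed between the groups, and their part in the Ces3a values was not tested. The 12 interferon response genes were all lower with HuR KD, all 12 at an unadjusted p under 0.05 and none at an adjusted p of 0.05, with a median log2 difference of -0.78 and sums of 332 to 646 TPM in LacZ livers and 216 to 352 TPM with HuR KD. Irf7 had 64.1 ± 14.7 and 36.0 ± 8.79 TPM and Bst2 187 ± 38.6 and 136 ± 13.9 TPM (limma adjusted p = 0.0528 and 0.116). In humanized livers BST2 had 108 ± 35.0 and 95.5 ± 40.0 TPM and ISG15 59.0 ± 42.3 and 62.5 ± 41.9 TPM. Of the 10 macrophage markers 9 were tested and all 9 were lower, 5 at an unadjusted p under 0.05, with sums over the 10 of 624 to 851 TPM in LacZ livers and 446 to 748 TPM with HuR KD. The 9 pericentral hepatocyte markers summed to 13052 to 15557 TPM in LacZ livers and 10629 to 12461 TPM with HuR KD, ranges that did not overlap, and 8 of the 9 were lower. The 7 periportal markers summed to 5645 to 7626 and 6494 to 9357 TPM, and the 8 endothelial markers to 176 to 229 and 182 to 226 TPM, with 4 higher and 4 lower. All 5 erythroid markers were higher with HuR KD (median log2 difference 0.36, 1 at an unadjusted p under 0.05), with sums of 277 to 413 TPM in LacZ livers and 190 to 710 TPM with HuR KD. The 6 of 9 T and NK cell markers tested were all lower (median -0.31, 1 at an unadjusted p under 0.05), with sums of 10.3 to 22.7 and 5.89 to 15.9 TPM. The 3 of 5 neutrophil markers tested were also lower (median -0.23, 0 at an unadjusted p under 0.05). Over all mouse genes tested, 1.25% had groups that did not overlap in the higher direction. In humanized livers 5 of 9 pericentral markers were higher, 4 at an unadjusted p under 0.05, and none was lower at that p. None passed in the main fit. At a mean of at least 5 TPM, with median-of-ratios or quantile scaling, or without LacZ replicate 2, 1 passed, higher. Hepatocyte markers were lower in 7 of 9 (median log2 difference -0.19, 0 at that p). The 4 of 6 cholangiocyte markers tested were all lower (median -0.998, 2 at that p). Their part in the CES1 values was not tested.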

How the data were processed

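Liver RNA of 20 mice was measured, 12 in the WT set and 8 in the humanized set. The authors' processing notes name Trim Galore, HISAT2, featureCounts and Subread with builds mm10 and GRCh38, and reads of humanized livers were mapped to a combined human and mouse index. The deposited values are TPM, which the authors scaled to 1000000 per library over the genes of each table. Levels were tested with limma 3.58.1 (R 4.3.3), lmFit and eBayes with trend, on log2(TPM + 1) for genes with a mean of at least 1 TPM in a set, Benjamini-Hochberg adjusted over that set, threshold 0.05. Fold changes on this scale understate those of low genes. Single human genes also had two-sided exact permutation tests in scipy 1.17.1. Reads per gene were estimated from the TPM steps, a method tested on simulated data, and used for depth alone. Sequence values came from GENCODE M21 transcripts. Named were all members, other carboxylesterases past the filter, HuR, and of each list the genes with an adjusted p under 0.05 (at most 4) or else the 2 of highest mean TPM, and the 5 genes most like Ces3a and CES1. Members and lists were chosen with earlier results of these data known.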

Additional observations from a re-analysis of the deposited data

Results flagged for a closer look

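Across the 20 combinations of a member and a group, 1 liver stood far from the rest of its group: LacZ replicate 3 of the WT set held 236 TPM of Ces3b, where the other 5 LacZ livers held 151 to 177 TPM. The limit used is one that chance passes in about 1 of 20 groups, and 1 of the 20 combinations passed it. Ces3a and its human counterpart CES3 had group differences in opposite directions, each in its own set of livers. The HuR KD mean of Ces3a was 39.2% of LacZ in WT livers, with each HuR KD liver below each LacZ liver. That of CES3 was 156.0% in humanized livers, with each HuR KD liver above each LacZ liver. The difference between the sets was not tested, Ces3a was chosen for its WT values, and CES3 did not pass the limma adjusted p (0.223).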

How the results depend on the processing

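Depth limits the shallow WT LacZ replicate 2 and genes of few reads, such as Ces4a, and the read length behind the Ces3a and Ces3b split is unknown. Ces3a kept its direction in all 20 alternatives (log2 difference -1.49 to -1.28), which re-fit the livers it was chosen from. Of the mouse members 8 had a lower mean in each of 8 settings, or 6 to 8 with 1 liver left out. CES1 stayed lower and short of the threshold in all 16 (-0.68 to -0.14, limma adjusted p 0.184 to 0.939).

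Counts of called genes depended on the settings, and the cause was not tested. The 134 mouse genes became 60 with no filter, 221 at a mean of at least 5 TPM, 228 with median-of-ratios factors, 272 with quantile normalization, 54 without the trend in limma, and 30 (without HuR KD replicate 2) to 371 (without HuR KD replicate 6) with 1 liver left out. In the same order of settings, the 2 list genes called in WT livers became 0, 4, 8, 7, 0 and 0 to 3. Interferon genes made up 2 of the 4, 5 of the 8 and 5 of the 7. Cell type markers are left out of the list counts in both sets. The 27 human genes became 1 with no filter, 60 at 5 TPM, 71 with median-of-ratios factors, 56 with quantile normalization, 2 without mitochondrially encoded genes, 0 without the trend, and 0 to 172 with 1 liver left out (172 without LacZ replicate 2). The 1 human list gene, MTTP, became 0 with no filter, without mitochondrially encoded genes or without the trend, and 0 to 1 with 1 liver left out. Among human genes with an unadjusted p under 0.05, 31.3% were higher, and 49.5% with median-of-ratios factors. Of the 5 genes most like Ces3a, 1 stayed without WT LacZ replicate 2.

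Replicate numbers did not pair the livers: same-numbered deviations correlated between -0.142 and 0.206 in WT livers and between -0.249 and 0.137 in humanized livers. With the replicate block the counts were 17 mouse genes, 1 WT list gene, 0 human genes and 0 human list genes.

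Some log2 differences turned sign, not all of them near 0 in the main fit (PLIN2 was 0.386 and CEBPA 0.2 there). AADAC was 0.062 with median-of-ratios factors, 0.055 with quantile normalization, 0.002 without mitochondrially encoded genes, and -0.08 to 0.029 with 1 liver left out. HNF4A was 0.005, 0.002 with the first 2 of these, and -0.142 to 0.037. With 1 liver left out the ranges were -0.069 to 0.028 for Ces1b, -0.032 to 0.053 for Mgll, -0.42 to 0.109 for CES4A, -0.152 to 0.289 for CES1P1, -0.249 to 0.337 for G0S2, -0.497 to 0.533 for HSD17B13, -0.035 to 0.622 for PLIN2, -0.024 to 0.388 for CEBPA and -0.271 to 0.64 for ISG15.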
